A study of Mus musculus with 12 samples.

Results

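The stefin A genes form a run of related copies on mouse chromosome 16. They were selected by gene symbol, with no threshold on a measured value, as Stfa1, Stfa2, Stfa3, Stfa2l1 and BC100530, which are 5 of the 23235 gene symbols measured. All 5 were listed in each of the 12 libraries. Of the 5, Stfa2l1 was below the level needed for testing in epidermis and above it in papilloma, and the other 4 were tested in both tissues.

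Polyadenylated RNA from FVB/NJ mice was sequenced from papillomas and from normal epidermis, with 3 libraries in each of 4 groups. The agent was camphor white oil at 20% (CWO), a plant oil of the camphor tree, and acetone was its vehicle. Epidermis came from shaved skin 24 h after 400 µL of CWO or of acetone and was separated with ammonium thiocyanate for 40 min, and for either treatment the 3 samples whose RNA was most intact were used. Papillomas, which are benign skin tumours, were raised in mice shaved at 6 to 7 weeks of age with a single dose of 400 nmol of the carcinogen DMBA and repeated doses of 10 nmol of the tumour promoter TPA. Per the labels the mice had a high tumour burden by 15 weeks, without a statement whether this is their age. Both papilloma groups had DMBA and TPA, then CWO or acetone for 6 weeks, and each library pooled 4 pre-malignant tumours of a mouse. The age of the mice that gave epidermis is not given in the sources used here, nor is it said that each epidermis sample was from a separate mouse, so p-values in epidermis measure the spread between these samples.

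Stefins are small inhibitors that stay inside the cell and block cysteine proteases of the papain family, such as the cathepsins of the lysosome. The human gene CSTA encodes a single stefin A that keratinocytes build into the cornified envelope, the protein shell of the outermost skin cells. Mice instead carry a family of copies, known both from keratinocytes and from myeloid cells such as neutrophils.

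Levels are given as FPKM, that is, fragments scaled to the length of the transcript and to the number of mapped fragments. Log2 fold changes were computed from log2(FPKM + 1), so that those of genes at a low level come out too small. A gene was called when its limma p, adjusted by the Benjamini-Hochberg method over all genes tested, was under 0.05. Libraries held 11.1 to 24.6 M fragments, as recovered from the deposited intervals. The 9 keratinocyte markers, among them Krt5 and Krt14, summed to at least 20490 FPKM in every library. In epidermis, libraries 1 and 2 of the vehicle group stood apart, with 9229 and 14996 FPKM over 10 skeletal muscle markers, against 2476 to 3191 FPKM in the 3 CWO libraries and 3016 FPKM in the vehicle library 3. The tests of the 5 genes in epidermis are therefore given with and without both of these vehicle libraries.

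In the mm9 genome used in the deposited files the genes lie in the order Stfa2l1 (chr16:36156897-36162034), Stfa1 (chr16:36277234-36285457), BC100530 (chr16:36359468-36367656), Stfa2 (chr16:36404032-36408449) and Stfa3 (chr16:36450623-36455478). Their likeness reached into the promoters, which are shown because 3 of the genes rose together in epidermis. RefSeq promoters on GRCm38.p6 were found for all 5, BC100530 through its RefSeq transcript, which carries the symbol Cstdc5. Each sequence has 100 bases and ends on the annotated start of the gene, and the capitals mark the longest run of letters that all 5 share, the 13 bases ACCTTTAAAACCC.
BC100530 (chr16:36367570-36367669, minus strand): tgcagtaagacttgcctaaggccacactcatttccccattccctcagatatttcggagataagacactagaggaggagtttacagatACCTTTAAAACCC
Stfa1 (chr16:36277049-36277148, plus strand): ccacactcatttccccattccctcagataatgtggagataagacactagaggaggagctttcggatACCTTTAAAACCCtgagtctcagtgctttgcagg
Stfa3 (chr16:36455392-36455491, minus strand): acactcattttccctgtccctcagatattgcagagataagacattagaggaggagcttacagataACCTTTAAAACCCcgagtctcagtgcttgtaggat
Stfa2 (chr16:36408363-36408462, minus strand): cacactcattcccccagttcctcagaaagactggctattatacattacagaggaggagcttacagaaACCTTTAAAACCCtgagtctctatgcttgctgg
Stfa2l1 (chr16:36156712-36156811, plus strand): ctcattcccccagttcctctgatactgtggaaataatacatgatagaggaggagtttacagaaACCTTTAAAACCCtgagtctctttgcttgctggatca

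This stretch began 32 to 36 bases before the start in Stfa2, Stfa1, Stfa3 and Stfa2l1, and 12 bases before it in BC100530, where its last base is the start. Being defined by these promoters, it is found in all 5 by construction. Searched on the gene's strand over 300 bases, it was in 9 of 32851 RefSeq promoters of that length (0.0274%). All 9 lay in the cluster itself, between positions 36156561 and 36455642 of chromosome 16 (GRCm38.p6): those of the 5 genes, of Gm5483 and Gm5416 (Cstdc4 and Csta3 in RefSeq), and of the RefSeq genes Cstdc3 and Gm7260. The TATA box letters TATAAA, searched on the gene's strand in the last 60 bases before the start, were in none of the 5 promoters and in 2.87% of all promoters.

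Motifs of 4 factor families were searched on both strands over the 300 bases, and matches may overlap each other. The AP-1 letters TGANTCA were in the promoter of Stfa3 alone among the 5, against 7.81% of all promoters. The C/EBP letters TTGCNNAA were in those of Stfa1 and BC100530, against 10.8% of all promoters. The NF-kB letters, GGG and CC with any 5 bases between them, were in 3 of the 5, those of Stfa1, Stfa2 and BC100530, against 50.8% of all promoters, and the grainyhead letters AACNNGTT were in 0 of the 5, against 4.20%. A match is a run of letters and not a site shown to be bound.

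Aligned in pairs, the transcripts of the 5 genes were 80.5% to 98.1% identical (10 pairs, GENCODE M21), and the promoters 81.4% to 96.4%. Stfa1 and BC100530 were the closest pair in both, at 98.1% and 96.4%, followed by Stfa2 and Stfa2l1 at 96.0% and 92.9%. This bears on every level below, since reads that fit several copies had to be divided between them. Windows of 50 bases were compared among 10 stefin A genes: the 5, Csta, Gm5483, Gm5416, 2010005H15Rik and BC117090. Cstdc3 and Gm7260 were not compared. Of the windows in the transcript of BC100530, 33.5% were also in a transcript of another of these genes. The shares were 23.9% for Stfa1, 16.8% for Stfa2l1, 14.7% for Stfa2 and 0% for Stfa3. Among the genes compared, Stfa3 was thus the member whose level depended least on the division of reads, as far as the reference genome of another strain can show. The read length is not given in the sources used here.

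The 5 genes differed widely in level, and their order was nearly the same in every group. BC100530 was the highest, with a mean of 7465 ± 1463 FPKM in papilloma given CWO, 6751 ± 582 FPKM in papilloma given vehicle, 412 ± 127 FPKM in epidermis given CWO and 39.1 ± 25.3 FPKM in epidermis given vehicle (SD, n = 3 each). Stfa3 came next in each group, with 3305 ± 833, 3210 ± 118, 204 ± 50.5 and 27.6 ± 7.16 FPKM in the same 4 groups. In both papilloma groups Stfa2 was above Stfa1 and Stfa1 above Stfa2l1 in all 3 libraries. In epidermis given CWO the places of Stfa1 and Stfa2 were exchanged, and neighbours in that order did not overlap in range. In epidermis given vehicle the ranges of BC100530 and Stfa3 overlapped, as did those of Stfa1 and Stfa2. By mean FPKM, BC100530 ranked 5 among all 23235 symbols in papilloma given CWO and 6 in papilloma given vehicle, and Stfa3 ranked 23 and 24. These ranks took values whatever their status, so Krt6a and Krt6b entered at 0 FPKM in vehicle libraries 2 and 3 and CWO libraries 1 and 3. In vehicle library 1 and CWO library 2, Krt6a had 9169 and 9225 FPKM and Krt6b 9353 and 9732 FPKM, above BC100530. More genes may therefore lie above BC100530 and Stfa3 than these ranks count. The 5 genes together made up 1.53% to 2.23% of all FPKM in papilloma given CWO and 1.8% to 1.94% in papilloma given vehicle.

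**Figure D1:**
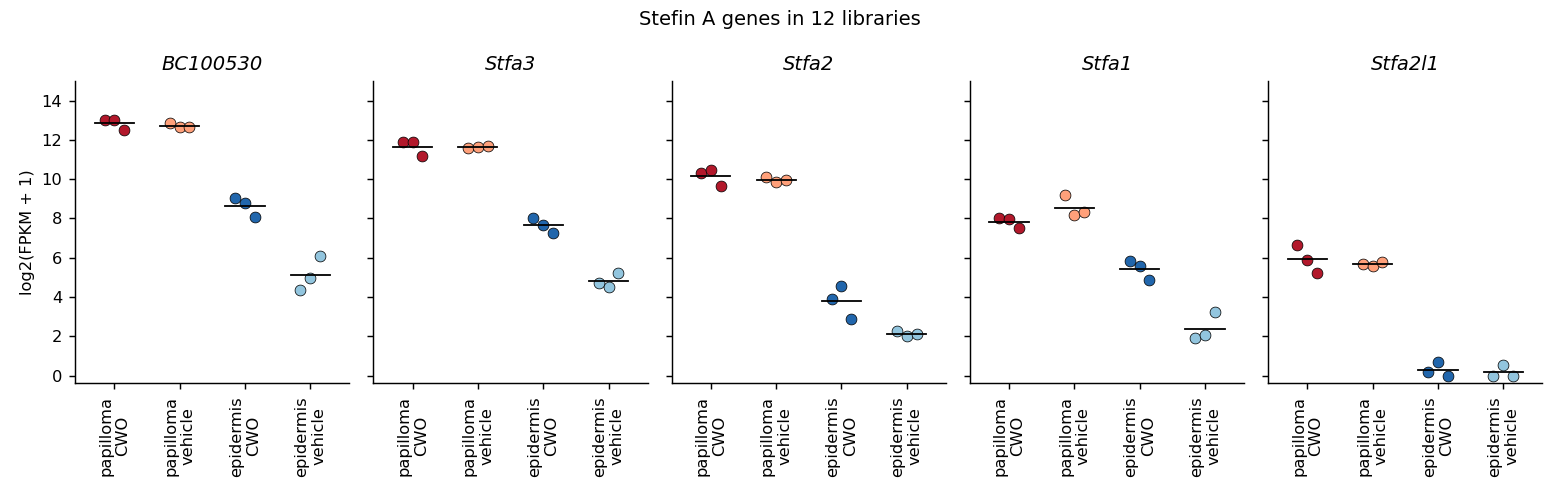
Levels of the 5 stefin A genes as log2(FPKM + 1), with a point for each library and a bar at the mean of the 3 log2 values, in papilloma given CWO, papilloma given vehicle, epidermis given CWO and epidermis given vehicle. Papilloma lies above epidermis for every gene, and epidermis given CWO above epidermis given vehicle for BC100530, Stfa3, Stfa2 and Stfa1. The 2 papilloma groups overlap except for Stfa1, which is lower with CWO. Stfa2l1 is near 0 in all 6 epidermis libraries.

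Whether a single application of CWO changed the stefin A genes of normal epidermis within 24 h was the question of the epidermis comparison. BC100530, Stfa1 and Stfa3 rose, Stfa2 had a positive change that missed the threshold, and Stfa2l1 was hardly detected. Together the 5 genes summed to 674 ± 195 FPKM with CWO and 74.9 ± 34.9 FPKM with vehicle (SD, n = 3 each), which is 9.01-fold. Against the vehicle library 3 alone, without both muscle-rich libraries, it was 5.87-fold. The sum of recovered fragments scaled to depth was 9.03-fold higher with all vehicle libraries and 5.87-fold higher against library 3 alone. Since fragments were recovered from the interval of each gene, this sum can still depend on how reads were divided among copies. Reads assigned to copies outside the 5 are not in it. In bulk RNA, fewer cells that express a gene and less RNA of that gene per cell cannot be told apart.

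BC100530 had 522, 442 and 273 FPKM in the 3 CWO libraries, against 19.7, 29.9 and 67.7 FPKM in the vehicle libraries. Every CWO library was far above every vehicle library, and the highest vehicle library was library 3, which had the least muscle signal of that group. The rise had a log2 fold change of 3.50 (SE 0.418, limma adjusted p = 0.00906). It rested on 1121 to 2137 recovered fragments per CWO library and 61.4 to 381 per vehicle library.

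Stfa3, the member that shared no window with the genes compared, had 255, 204 and 154 FPKM with CWO, against 25.1, 22.0 and 35.7 FPKM with vehicle. The groups were clearly separate, with little spread within the vehicle group. The log2 fold change was 2.84 (SE 0.222, limma adjusted p = 0.00290), and its p ranked 5 among the 12311 genes tested.

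Stfa1 had 55.8, 46.1 and 28.6 FPKM with CWO, against 2.71, 3.14 and 8.27 FPKM with vehicle. Again all CWO libraries were above all vehicle libraries, though 2 vehicle libraries were close to the limit of measurement, with the lowest at 5.76 recovered fragments. Its log2 fold change was 3.04 (SE 0.366, limma adjusted p = 0.00906).

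Stfa2 had 14.03, 22.5 and 6.33 FPKM with CWO, against 3.74, 2.99 and 3.27 FPKM with vehicle. The groups did not overlap, but the CWO libraries were spread over a wide range. The log2 fold change of 1.67 (SE 0.365, limma adjusted p = 0.0702) was not called, nor was it under 18 of 21 alternatives. It was called under the other 3. These were the fit without the CWO library 3 (limma adjusted p = 0.00651), a fit of all 12 libraries (limma adjusted p = 0.01425), and the filter of FPKM of at least 1 in every library (limma adjusted p = 0.0397). Stfa2l1 had at most 1.27 recovered fragments in any epidermis library, and its mean FPKM of 0.249 with CWO and 0.148 with vehicle did not differ beyond the spread (exact permutation test, two-sided, p = 0.7, where 3 against 3 cannot go below 0.1).

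Of the 4 genes tested, 3 were called higher and none lower, while 1.73% of all 12311 genes tested were called higher and 1.89% in either direction. All 4 had groups that did not overlap, as did 18.7% of all genes in either direction. Their median log2 fold change was 2.94, against 0.02 over all genes tested. Without the muscle-rich vehicle libraries 1 and 2, which leaves a single vehicle library that is assumed to vary like the others, the changes were 2.45 for Stfa3 (limma adjusted p = 0.0411), 2.54 for BC100530 (limma adjusted p = 0.0693), 2.21 for Stfa1 (limma adjusted p = 0.102) and 1.69 for Stfa2 (limma adjusted p = 0.569). In that fit 1 of the 4 was called, and 11 of all genes were. Relative to the mean of the keratinocyte markers, the same 3 genes were called, with log2 changes of 3.33, 2.67 and 2.87 for BC100530, Stfa3 and Stfa1.

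The authors' deposited table for epidermis, which lists 176 genes up to an adjusted p of 0.00544, holds BC100530 with a log2 ratio of 3.46 (adjusted p = 1.44e-05) and Stfa3 with 2.88 (adjusted p = 1.15e-06). Stfa1 and Stfa2 are not in that table.

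**Figure D2:**
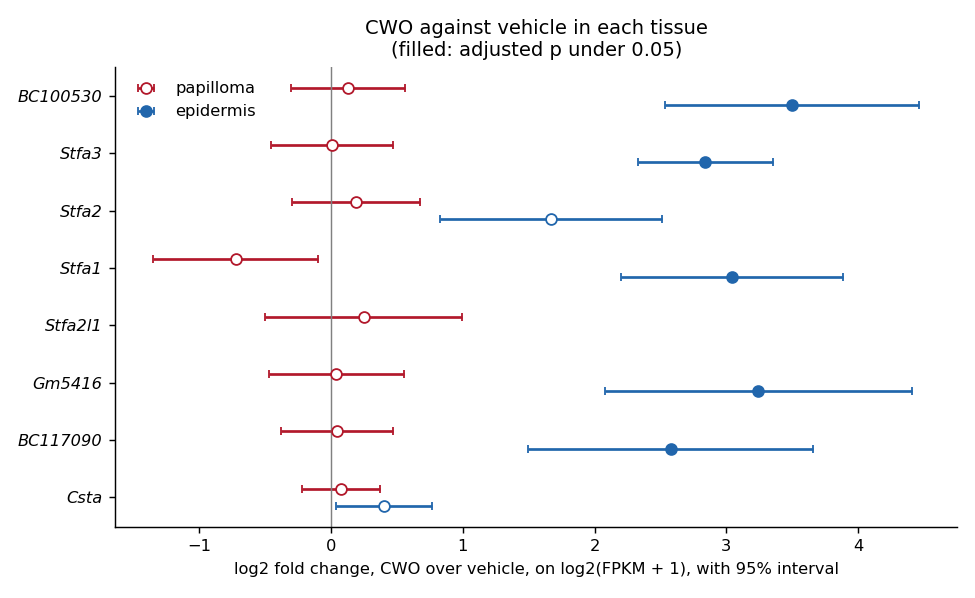
Log2 fold change of CWO over vehicle on the log2(FPKM + 1) scale, with its 95% interval from limma, for the 5 stefin A genes and 3 related genes, in papilloma above and in epidermis below for each gene. Filled points were called. In epidermis BC100530 is at 3.50 and Stfa3 at 2.84, and in papilloma all points but that of Stfa1 have intervals that include 0.

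BC100530 and Stfa3 made up most of the total in every group. BC100530 made up 60.9 ± 1.52% of the summed FPKM in epidermis given CWO and 49.5 ± 10.4% in epidermis given vehicle, and Stfa3 30.6 ± 2.46% with CWO and 39.2 ± 9.09% with vehicle (SD, n = 3 each). In papilloma BC100530 made up 61.2 ± 1.8% with CWO and 59.1 ± 1.56% with vehicle. The minor members differed between tissues: Stfa2 made up 9.52 ± 0.825% in papilloma given CWO and 8.79 ± 0.372% in papilloma given vehicle, against 2.06 ± 0.955% in epidermis given CWO and 5.08 ± 2.23% in epidermis given vehicle. The ratio of Stfa2 to Stfa1 was 4.47 to 5.76 in papilloma given CWO and 1.89 to 3.20 in papilloma given vehicle, against 0.221 to 0.488 in epidermis given CWO and 0.395 to 1.38 in epidermis given vehicle. Stfa2 was therefore the more abundant of the pair in all 6 papilloma libraries and the less abundant in all 3 epidermis libraries given CWO. Shares and ratios carry no test here.

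**Figure D3:**
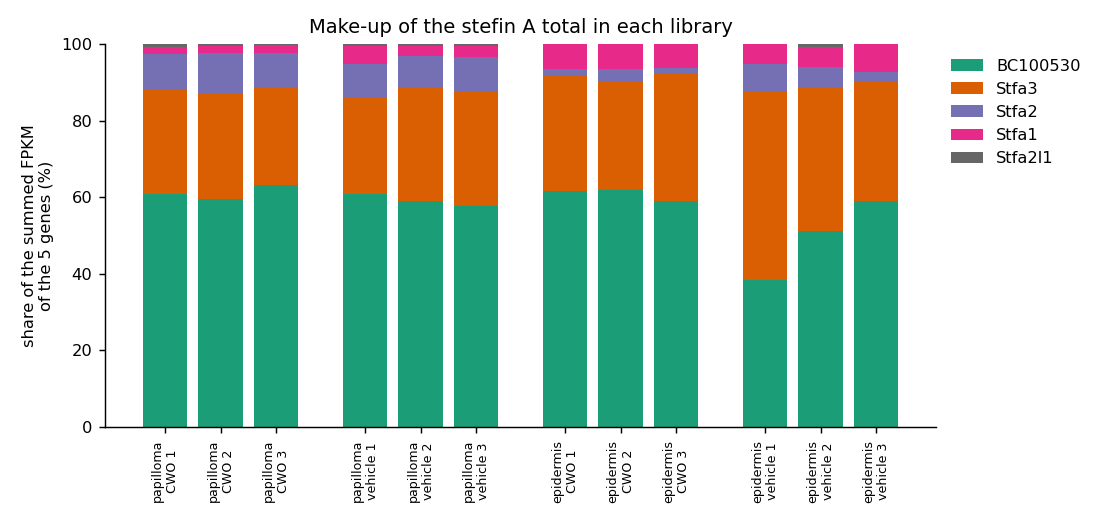
Share of each stefin A gene in the summed FPKM of the 5 genes, in percent, as a stacked bar for each of the 12 libraries. BC100530 and Stfa3 fill most of every bar, Stfa2 is wider in papilloma than in epidermis given CWO, and the vehicle library 1 of epidermis has the smallest share of BC100530, at 38.4%.

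The papilloma comparison asked whether 6 weeks of CWO changed the same genes in tumours that already carried them at a high level. None of the 5 was called, where 0.00821% of 12179 genes tested were, a single gene, Snora75, which was picked out after its values were seen. It is a small nucleolar RNA, and without short non-coding genes no gene was called in this tissue. At an unadjusted p under 0.05 there were 306 genes, and limma-voom on recovered fragments called 0.

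BC100530 had 8420, 8194 and 5781 FPKM with CWO, against 7421, 6454 and 6377 FPKM with vehicle. The CWO library 3 was below all vehicle libraries and the other 2 were above them, a pattern shared by Stfa3, with 3762, 3810 and 2343 FPKM with CWO, against 3083, 3230 and 3315 FPKM with vehicle. The log2 fold changes were 0.13 for BC100530 (95% interval -0.30 to 0.56) and 0.01 for Stfa3 (95% interval -0.46 to 0.47, turning negative when the vehicle library 1 or the CWO library 1 or 2 was left out).

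Stfa2 had 1283, 1436 and 810 FPKM with CWO, against 1089, 916 and 1007 FPKM with vehicle, and Stfa2l1 had 101, 57.9 and 36.0 FPKM with CWO, against 50.1, 46.3 and 53.8 FPKM with vehicle. In both genes the CWO library 3 was again the lowest of the 6 and the CWO group spread wider than the vehicle group. Their log2 fold changes were 0.19 (95% interval -0.30 to 0.68) and 0.25 (95% interval -0.50 to 1.00).

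Stfa1 differed from the other members in direction. It had 256, 249 and 181 FPKM with CWO, against 576, 287 and 316 FPKM with vehicle. Every CWO library was below every vehicle library, as it was for 3.56% of all genes, although the vehicle library 1 was far above the other 2 vehicle libraries. The log2 fold change was -0.72 (95% interval -1.34 to -0.10, limma adjusted p = 1.00), and it was -0.41 without the vehicle library 1. The ratio of Stfa1 to BC100530, its closest copy, was 0.0304, 0.0304 and 0.0313 in the CWO libraries and 0.0776, 0.0444 and 0.0495 in the vehicle libraries. In the authors' deposited table, Stfa1 had mean normalised counts of 162 with CWO and 541 with vehicle in papilloma, a log2 ratio of -1.74 with an adjusted p of 1, and the other 4 members had log2 ratios of 0.11 to 0.67, all with an adjusted p of 1. The part of read division between Stfa1 and its copies in this difference was not tested.

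The CWO effect was smaller in papilloma than in epidermis for the 3 members called in epidermis. The difference of the effects, papilloma minus epidermis, was -3.76 for Stfa1 (limma adjusted p = 0.00813), -3.37 for BC100530 (limma adjusted p = 0.0133) and -2.83 for Stfa3 (limma adjusted p = 0.00221) on the log2 scale. It was -1.48 for Stfa2 (limma adjusted p = 0.240), which passed without the epidermis CWO library 3 (limma adjusted p = 0.0129), and 0.14 for Stfa2l1 (limma adjusted p = 0.960), whose sign depended on the pseudocount. Of the 5 genes 3 were lower, as were 0.688% of 13224 genes tested, and 0.718% of all genes differed in either direction. With limma-voom on recovered fragments Stfa1 was no longer called (-3.94, adjusted p = 0.0557). Without the epidermis CWO library 1, BC100530 was no longer called (limma adjusted p = 0.0519). Without both muscle-rich vehicle libraries none of the 3 was called, with differences of -2.94, -2.41 and -2.45 for Stfa1, BC100530 and Stfa3 (limma adjusted p = 0.0984, 0.0807 and 0.0523). The 2 tissues also differed in the length of treatment, in DMBA and TPA, and in how tissue was prepared, and these cannot be told apart here.

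Between tissues the cluster showed its widest range. With vehicle, the 5 genes summed to 11407 ± 706 FPKM in papilloma and 74.9 ± 34.9 FPKM in epidermis, and with CWO to 12239 ± 2675 FPKM in papilloma and 674 ± 195 FPKM in epidermis (SD, n = 3 each). All 5 genes were called higher in papilloma with vehicle, where 32.0% of 13224 genes were, and all 5 with CWO, where 29.6% were. With vehicle, the log2 fold changes were 7.86 for Stfa2, 7.58 for BC100530, 6.84 for Stfa3, 6.16 for Stfa1 and 5.49 for Stfa2l1 (limma adjusted p from 6.65e-10 to 3.30e-08). With CWO they were 6.38 for Stfa2, 4.21 for BC100530, 4.01 for Stfa3, 2.40 for Stfa1 and 5.63 for Stfa2l1 (limma adjusted p from 1.42e-08 to 8.57e-05). The comparisons under vehicle and under CWO contrast separate libraries. Both share an estimate of spread over all 12 libraries, so their p-values are not independent. For no member did the tissues overlap, as was the case for 33.6% of all genes higher in papilloma with vehicle and 31.3% with CWO.

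For Stfa2l1 the fitted change rests on the pseudocount, since epidermis was nearly empty. Over 3 libraries it had 558 recovered fragments in papilloma and 1 in epidermis with vehicle, a ratio scaled to depth of 502 with a 95% interval of 89.8 to 19874. With CWO it had 753 fragments in papilloma and 2 in epidermis, a ratio of 376 (95% interval 104 to 3107). These exact intervals cover counting error only. Recovered fragments are estimates, and those in epidermis given CWO summed to 1.52 before rounding to 2. By mean FPKM the ratios of papilloma to epidermis were 337 with vehicle and 261 with CWO.

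Markers of other cells were measured beside the stefins, since neutrophils also express this family. The 25 neutrophil markers in the files summed to 337 to 455 FPKM in epidermis given CWO and 220 to 285 FPKM in epidermis given vehicle, and S100a9, an alarmin subunit also made by stressed keratinocytes, was the only 1 of 11 tested that was called (log2 fold change 1.84, limma adjusted p = 0.0281, lost without the vehicle library 1 or any of the 3 CWO libraries, with adjusted p of 0.0584 to 0.0890). With S100a8, S100a9, Lcn2 and Il1r2 left out, a choice made after their levels were seen, the other 21 summed to 29.3 to 37.2 FPKM with CWO and 26.7 to 37.4 FPKM with vehicle. The granule genes Elane, Ctsg and Ngp were at 0 in all 6 epidermis libraries, but other granule genes of the list were not. Ltf had 0.510 to 5.28 FPKM with CWO and 0.0323 to 9.83 FPKM with vehicle. Prtn3 had 0.145 to 0.443 FPKM with CWO and 0.597 to 0.857 FPKM with vehicle, and Camp at most 1.73 and 0.316 FPKM. Cxcr2, the chemokine receptor of neutrophils, had 0.846 to 2.74 FPKM with CWO and 0.306 to 1.02 FPKM with vehicle, and Mpo, the peroxidase of neutrophil granules, 1.06 to 1.74 FPKM with CWO and 0.155 to 0.621 FPKM with vehicle (limma adjusted p = 0.0930). Their part in the rise of the stefins was not tested. Of the markers of other cells tested in epidermis, 0 of 9 of macrophages, 0 of 2 of mast cells, 0 of 4 of T cells, 0 of 9 of keratinocytes and 0 of 10 of skeletal muscle were called, against 1 of 8 of Langerhans and dendritic cells, which was higher, and 2 of 6 of fibroblasts, of which 1 was higher and 1 lower. Over all genes tested in epidermis 1.89% were called in either direction.

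In papilloma all 25 neutrophil markers summed to 9824 to 16928 FPKM with CWO and 9756 to 14765 FPKM with vehicle, far above epidermis under both treatments. Without S100a8, S100a9, Lcn2 and Il1r2 the other 21 summed to 84.7 to 111 FPKM with CWO and 70.9 to 107 FPKM with vehicle. Both ranges are above epidermis, but only with Il1r2 left out. Il1r2 had 8.10 to 15.9 FPKM with CWO and 9.24 to 14.8 FPKM with vehicle in papilloma. In epidermis it had 77.8 to 102 FPKM with CWO and 82.1 to 101 FPKM with vehicle. With Il1r2 kept, 22 markers summed in papilloma to 94.9 to 119 FPKM with CWO and 84.1 to 122 FPKM with vehicle. The same 22 summed in epidermis to 115 to 131 FPKM with CWO and 113 to 131 FPKM with vehicle. Papilloma was then not above epidermis. Cxcr2 reached 9.89 to 13.0 FPKM with CWO and 10.5 to 17.7 FPKM with vehicle. Csf3r, another neutrophil marker of the list, had 2.70 to 3.25 FPKM with CWO and 2.17 to 4.03 FPKM with vehicle, against at most 0.134 FPKM in epidermis. Elane was at 0.0916 FPKM or less in all 6 papilloma libraries, and Mpo at 0.131 FPKM or less. Fibroblast markers were also higher in papilloma, with sums of 496 to 728 FPKM given CWO and 455 to 664 FPKM given vehicle, against 70.2 to 86.5 FPKM and 47.6 to 93.4 FPKM in epidermis given CWO and given vehicle. Between tissues with vehicle, 32.0% of all 13224 genes tested were called higher in papilloma and 38.5% lower. Of the markers tested, 11 of 16 of neutrophils were called higher and 2 lower, and 8 of 12 of macrophages and monocytes higher and 3 lower. Called higher were also 6 of 7 of mast cells and 6 of 7 of fibroblasts. Called lower were 4 of 4 of T cells, 6 of 8 of Langerhans and dendritic cells, with 1 higher, and 10 of 10 of skeletal muscle. Their part in the difference of the stefins between tissues was not tested.

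**Figure D4:**
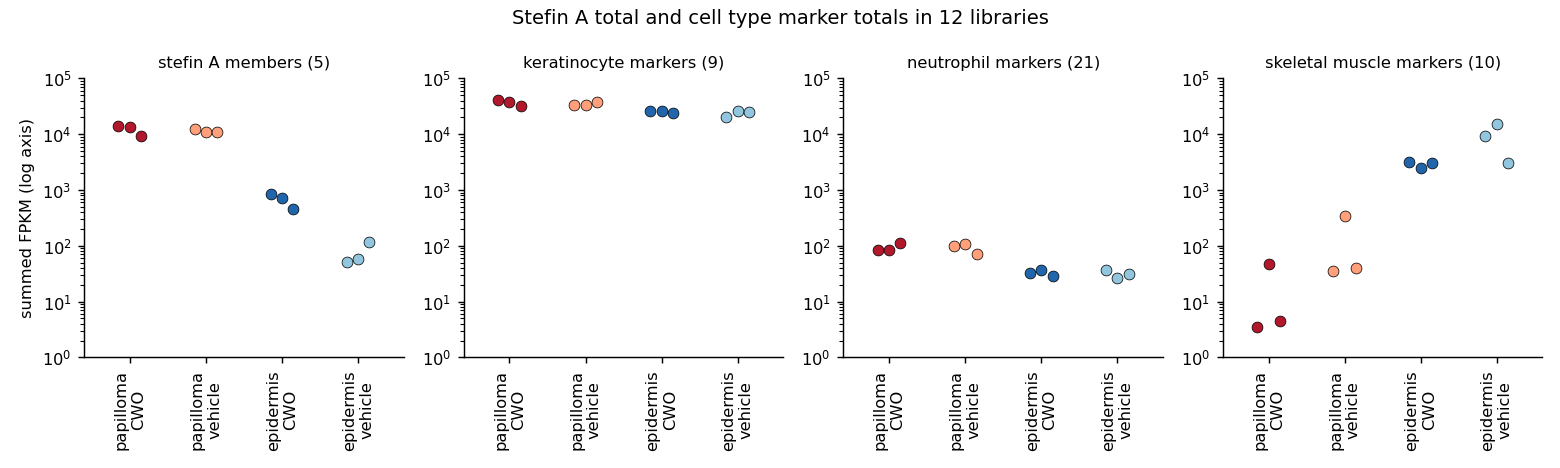
Summed FPKM, on a log axis, of the 5 stefin A genes, of 9 keratinocyte markers, of 21 neutrophil markers (S100a8, S100a9, Lcn2 and Il1r2 left out) and of 10 skeletal muscle markers, with a point for each of the 12 libraries. The stefin total separates epidermis given CWO (462 to 847) from epidermis given vehicle (51.2 to 115), and the keratinocyte total and that of these 21 neutrophil markers overlap between the same groups, whereas all 25 neutrophil markers (337 to 455 with CWO, 220 to 285 with vehicle) do not. The muscle total is highest in vehicle libraries 1 and 2 of epidermis.

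The rise in epidermis was shared by other genes inside the cluster and by few genes around it. Between Stfa2l1 and Stfa3 the files list 9 genes, of which 6 were tested in epidermis and 5 were called higher, against 1.73% of all 12311 genes tested. Besides the 3 members these were Gm5416 and BC117090, both stefin A like. Gm5416 had 17.2, 16.8 and 8.89 FPKM with CWO, against 0, 0 and 2.78 FPKM with vehicle (log2 fold change 3.24, limma adjusted p = 0.0231). BC117090 had 47.8, 25.5 and 26.0 FPKM with CWO, against 2.73, 2.56 and 11.3 FPKM with vehicle (log2 fold change 2.58, limma adjusted p = 0.0374). Both were fully separate between groups, but neither call held when the vehicle library 1 or 2 or the CWO library 1 or 2 was left out (limma adjusted p from 0.0728 to 0.163), and BC117090 was also lost without the CWO library 3 (limma adjusted p = 0.0604). Without both muscle-rich libraries the changes were 1.97 for Gm5416 (limma adjusted p = 0.153) and 1.41 for BC117090 (limma adjusted p = 0.330). The authors' deposited table has them at log2 ratios of 2.96 and 3.56. BC117090 shares 27.2% of its windows of 50 bases with BC100530, while Gm5416 shares none with the other stefin A genes compared.

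Gm5483, another gene of the cluster, was at 0 in all vehicle libraries of epidermis and at most 0.278 FPKM in those given CWO, and had 4.68 to 7.57 FPKM in papilloma given CWO and 3.85 to 7.67 FPKM in papilloma given vehicle. The last, 2010005H15Rik, was at or near 0 in all 12 libraries. In papilloma none of the 8 tested genes of the interval was called, where 0.00821% of all 12179 genes tested were.

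Outside the interval, within 500 kb on the side of Stfa2l1, 1 of 10 genes tested was called in epidermis, and on the side of Stfa3 0 of 6. Over all genes tested 1.89% were called in either direction. The called gene was Fam162a, a mitochondrial protein gene that responds to hypoxia, with a log2 fold change of 1.56 (limma adjusted p = 0.00571), and its edge lay 85.3 kb from the nearest member. Csta, the neighbour of Stfa2l1 and a stefin A of the same family, lay between them at 25.6 kb. Csta had 49.6, 41.5 and 64.8 FPKM with CWO, against 37.0, 39.4 and 38.9 FPKM with vehicle, groups that did not overlap, and its log2 fold change of 0.40 (limma adjusted p = 0.294) was not called. Casr, the neighbour of Stfa3, was below the level needed for testing. The median log2 change was 2.94 for the tested genes inside the interval, 0.18 for those on the side of Stfa2l1 and -0.07 for those on the side of Stfa3.

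**Figure D5:**
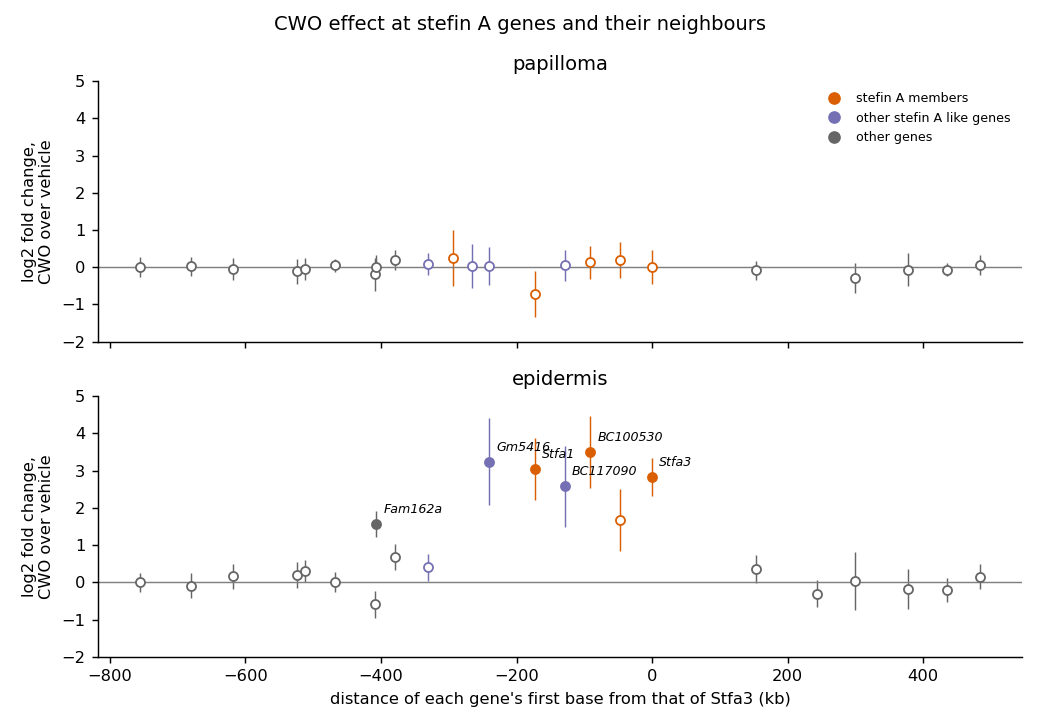
Log2 fold change of CWO over vehicle, with its 95% interval, against the distance of each gene from Stfa3 in kb, for tested genes within 500 kb of the outermost members, in papilloma and in epidermis. Filled points were called. In epidermis 5 genes of the cluster and Fam162a are filled, and in papilloma none is.

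Among other inhibitors of the same proteases the changes in epidermis were small. Of the list of stefin B and other cystatins, 15 were in the files, 4 were tested, 1 was called higher and none lower, with a median log2 change of 0.51. Of all genes tested 1.73% were called higher. The called gene was Cstb, the stefin B of most cells, with 648, 678 and 552 FPKM given CWO, against 368, 389 and 402 FPKM given vehicle (log2 fold change 0.69, limma adjusted p = 0.0332). Its groups were separate, but the call was lost when the vehicle library 1 or 2 or the CWO library 1 or 2 was left out (limma adjusted p from 0.101 to 0.169), relative to keratinocyte markers (limma adjusted p = 0.147), and without both muscle-rich libraries (limma adjusted p = 0.549). Cst6, cystatin E/M of the cornifying epidermis, had a log2 change of 0.63 (limma adjusted p = 0.0698). In papilloma 0 of 4 were called, with Cstb at -0.11 and Cst3, the secreted cystatin C, at -0.07. Of all 12179 genes tested there, 0.00821% were called.

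Of their targets, the cysteine cathepsins and legumain, 0 of 11 tested were called in epidermis (median log2 change 0.17) and 0 of 10 in papilloma (median -0.03). Over all genes tested, 1.89% were called in epidermis and 0.00821% in papilloma. Ctsl, a lysosomal cathepsin that stefin A inhibits, had 173, 233 and 189 FPKM in epidermis given CWO, against 124, 144 and 137 FPKM in epidermis given vehicle, with a log2 change of 0.54 that was not called (limma adjusted p = 0.102). Ctsh, an aminopeptidase of the same family, was at 0.38 (limma adjusted p = 0.102). In papilloma Ctsz and Ctss, the members with the smallest p, were at -0.27 and -0.24 and were not called. Between tissues with vehicle, 4 of 11 were higher and 3 lower in papilloma, where 32.0% of all genes were higher and 38.5% lower, with Ctsl at 0.85 (limma adjusted p = 0.000131).

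Genes of the cornified envelope, the structure into which stefin A is built, held 7 called higher of 38 tested in epidermis and none lower, with a median log2 change of 0.15. Beside this and the next count, 1.73% of all 12311 genes tested in epidermis were called higher. Sprr2a2, a small proline-rich envelope precursor, had 205, 260 and 103 FPKM with CWO, against 13.8, 18.9 and 13.9 FPKM with vehicle (log2 fold change 3.44, limma adjusted p = 0.00405, and 0.0604 without both muscle-rich libraries). Sprr2f, of the same family, was at 2.13 (limma adjusted p = 0.00840, and 0.127 without them). Of 17 stress keratins and alarmins, 3 were called higher, among them Il1f6, an epithelial cytokine of the interleukin-1 family, at 2.43 (limma adjusted p = 0.00290) and Slpi, a secreted inhibitor of serine proteases, at 1.90 (limma adjusted p = 0.00986, and 0.0512 without them). In papilloma 0 of 43 envelope genes and 0 of 19 stress keratins and alarmins were called, where 0.00821% of all 12179 genes tested were.

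Over the 12 libraries, the gene whose log2(FPKM + 1) followed Stfa3 most closely among 13188 genes was BC100530 (Pearson r = 0.996, Spearman rho = 0.958). Next came 2610528A11Rik, Gm5416, BC117090 and Sprr2h, so that 3 of the 5 nearest were genes of the cluster. For Stfa2 the nearest were Cgref1, Lce3c, Fabp5, Lce3f and E2f8, none of them in the cluster, and for Stfa2l1 they were Klk9, Slc10a6, Akr1d1, Casp14 and Cdhr1. Among the nearest genes of Stfa1 were Slc16a1, BC100530, Gm5416 and Fam162a, and those of BC100530 were Gm5416, Stfa3, 2610528A11Rik, Slc25a17 and BC117090. These are descriptions over libraries that fall into 2 tissues far apart in level, and copies that share reads also share part of their values. Ranked by Spearman rho, the 5 nearest genes shared 1 gene with these for Stfa3 and for BC100530, and 0 for Stfa1, Stfa2 and Stfa2l1.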

How the data were processed

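The 5 genes and the gene lists were chosen with earlier results of these data known. Per the submitters' processing notes, reads were handled with bcl2fastq 1.8.4, TopHat2 2.0.4, Cufflinks 2.0.2 and DESeq on mm9. The deposited per-library files hold FPKM with an interval and a status. Per the file headers, the authors' 2 tables of comparisons hold normalised counts as a mean signal of each group, with a fold (ratio), its log2 and a p-value.

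In the tests and the search for nearest genes, values without the status OK were treated as missing. Ranks by mean FPKM, shares of all FPKM and sums over marker lists took values whatever their status. FPKM of 248 symbols with several rows were summed. Fragments were recovered from the deposited intervals, and in each library 67.9% to 69.2% of values below 500 came out whole (tolerance 0.02). limma 3.58.1 (R 4.3.3, intensity trend) was run on log2(FPKM + 1), for genes that reached FPKM 1 in 3 or more fitted libraries and had 2 or more values per group, two-sided, within each tissue or, for the other comparisons, over 12 libraries. The fit was tested on simulated data. All 5 members, the stefin A like genes, neighbours within 500 kb, the 2 members with the smallest p of 5 lists and the 5 nearest genes by Pearson r are named by rule, apart from 1 nearest gene that is not reported here. Sequences are from RefSeq (GRCm38.p6) and transcripts from GENCODE M21. Alternatives were pseudocounts of 0.1 and 3, other filters, scalings and limma settings, limma-voom, a replicate block and each library left out. Chosen after the data were seen were values relative to keratinocyte markers, both muscle-rich libraries left out, sums of fragments, and short non-coding genes left out.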

Additional observations from a re-analysis of the deposited data

Results flagged for a closer look

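In the main fit, the effect of CWO differed between papilloma and epidermis for 3 of the stefin A genes, by a test of the difference itself. For Stfa1 the difference, papilloma minus epidermis, was -3.76 on the log2 scale, from an effect of -0.72 in papilloma and 3.04 in epidermis. For BC100530 it was -3.37, from effects of 0.13 in papilloma and 3.50 in epidermis. For Stfa3 it was -2.83, from effects of 0.01 in papilloma and 2.84 in epidermis. With a replicate block within each tissue, Stfa1 and BC100530 lost their calls (limma adjusted p = 0.0655 and 0.107). Stfa1 was also lost with limma-voom (adjusted p = 0.0557), and BC100530 without the epidermis CWO library 1 (limma adjusted p = 0.0519). Without both muscle-rich vehicle libraries the differences were smaller in size, at -2.94, -2.41 and -2.45 for Stfa1, BC100530 and Stfa3. The level under vehicle differed as well, since in papilloma the 3 genes were at 287 FPKM or more in every vehicle library, against 67.7 FPKM or less in every vehicle library of epidermis.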

How the results depend on the processing

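Stfa3 was called in epidermis under all 21 alternatives, with a log2 fold change of 2.45 to 3.03. Stfa1 lost its call under 3 of them and BC100530 under 4. The number of members called in epidermis was 1 with no filter on low values, 1 with the replicate block and 1 without both muscle-rich vehicle libraries, and 3 to 4 with each library left out. All genes called there numbered 33 with no filter, 637 in a fit of all 12 libraries, 26 with the replicate block, 117 relative to keratinocyte markers, 11 without both muscle-rich libraries and 51 to 653 with each library left out (51 without CWO library 1, 653 without vehicle library 3, and lower by over 1.5 times without vehicle library 1 or 2 or CWO library 2). In papilloma they numbered 2 in the fit of 12 libraries, 5 with the replicate block, 3 relative to keratinocyte markers, 0 to 1 with each library left out, and 0 with a pseudocount of 3, no filter, FPKM of at least 1 in every library, either rescaling, no trend, robust limma, limma-voom or no short non-coding genes. For the difference between tissues they numbered 63 with no filter, 49 with limma-voom, 22 with the replicate block, 36 relative to keratinocyte markers, 17 without both muscle-rich libraries and 32 to 330 with each library left out. Members called in the difference numbered 2 with limma-voom (Stfa1 was lost), 1 with the replicate block, 0 without both muscle-rich libraries and 2 to 4 with each library left out. The causes of these changes in number were not tested. In deviations from group means, same-numbered CWO and vehicle libraries correlated at -0.0221, -0.444 and -0.34 in epidermis and at 0.243, 0.169 and 0.0188 in papilloma. Libraries with different numbers correlated at -0.16 to 0.415 in epidermis and at -0.331 to 0.209 in papilloma. With 3 libraries per group these values cannot settle whether replicate numbers pair the samples.

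Among members and stefin A like genes, signs turned for log2 changes of at most 0.25 in size. With each library left out, the change in papilloma ran from -0.11 to 0.24 for Stfa3, -0.13 to 0.61 for Stfa2l1, -0.0046 to 0.21 for Csta, -0.069 to 0.25 for BC117090, -0.24 to 0.20 for Gm5483 and -0.11 to 0.28 for Gm5416, and the difference between tissues from -0.24 to 0.49 for Stfa2l1 and -0.36 to 0.083 for Gm5483. With limma-voom Gm5483 was at -0.0086 in papilloma. In the difference, Stfa2l1 was at -0.29 with a pseudocount of 0.1 and at -0.041 without both muscle-rich libraries, and Gm5483 was at 0.10 relative to keratinocyte markers. By recovered fragments in place of FPKM, shares in epidermis given CWO were 6.05% for Stfa1, 28.1% for Stfa3 and 63.8% for BC100530, in papilloma given CWO 1.77%, 24.6% and 64.0%, and for BC100530 in papilloma given vehicle 62.0%. All 5 members stayed called between tissues under every alternative in which they were tested. Stfa2l1 was not tested where FPKM of at least 1 was required in every library. Depth limits Stfa2l1 in epidermis, where no library had more than 1.27 recovered fragments, and Stfa2, where vehicle libraries had 7 to 17.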
